A study of Macrobrachium nipponense with 4 samples.

Results

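The contigs described here were abundant in the hepatopancreas of unexposed juvenile oriental river prawns (Macrobrachium nipponense) at 24 h and were at or near 0 counts in both libraries taken at 28 days. A contig is a stretch of transcript put together from short reads. The members were chosen by their raw counts: at most 3 in each 28-day library, with or without nitrite, and at least 100 in the 24-h control. This gave 189 contigs of the 58871 in the table, and of the 8183 that had at least 100 counts in the 24-h control. All 3 libraries were used by this choice, so the counts below are a description and no test was made on them.

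The 28-day nitrite library came from juveniles of the chronic experiment at 6.555 mg/l nitrite, and the 28-day control from juveniles of the same experiment at 0 mg/l. The 24-h control came from the acute experiment, also at 0 mg/l. The labels describe an acute nitrite group as well, at 26 mg/l and 24 h. Each group has 1 library, for which the labels give a sample size of 9 prawns without saying whether these were pooled. No strain, sex or exact age is named, and the starting weight is given as 1.12 ± 0.06 g, with no word on the type of error, for animals kept in 12 tanks of 50.

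The count table has 4 columns of values, of which 3 carry the names in the labels: MT for the 28-day nitrite library, ML for the 28-day control and CL for the 24-h control. The other column, TL, matches no label, since the labels call the acute nitrite library CT. By elimination TL would be the acute nitrite library, but its name does not show this and its counts were not used. Whether the second library taken at 24 h also held these contigs is therefore not analysed here.

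The hepatopancreas is the main digestive gland of decapod crustaceans. It secretes digestive enzymes, absorbs nutrients, stores lipid and glycogen, and takes part in detoxification and immunity. Nitrite enters freshwater crustaceans mainly across the gills, where it competes with chloride uptake, and it is known to impair oxygen transport and to cause oxidative stress.

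The contig IDs carry no gene names. As text, 0 of the 58871 equalled a name or ID in the RefSeq table for this species, which holds 32339 genes. Sequences were not compared, so this does not show that the contigs lack a gene there. No function, marker list or cell type could therefore be assigned to any member, the labelled tissue could not be checked against its markers, and the origin of the members is not known. Total counts were 24818146 in the 28-day nitrite library, 26366818 in the 28-day control and 21215108 in the 24-h control, so the 24-h control was the least deeply sequenced of the 3. In ratios per contig, counts of 0 were set to a floor of 3 counts, which allows for counting error only. Counts of 1 and 2 were kept, so a contig with 1 count can have a lower ratio than a contig with 0. This floor is 0.105 CPM (counts scaled by the TMM-adjusted library total) in the 28-day nitrite library and 0.129 CPM in the 28-day control.

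The members together had 68 counts in the 28-day nitrite library, 76 in the 28-day control and 146307 in the 24-h control. In CPM of the unscaled library totals, this was 2.74, 2.88 and 6896, so both 28-day libraries lay far below the 24-h control and close to each other. The ratio of the 28-day nitrite library to the 28-day control was 0.951, with an exact 95% counting interval of 0.675 to 1.34. The limit of 3 counts caps both sums, so their closeness follows in part from the rule. In whole tissue, fewer cells of a type and less RNA per cell cannot be told apart. In the 24-h control the members took 0.69% of all counts (95% Clopper-Pearson interval, 0.686 to 0.693, for counting error).

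At least 1 28-day library held a count for 78 of the 189 members, so the label of absence holds strictly, at 0 counts in both, for the other 111. The 28-day nitrite library had 0 counts for 142 members, 1 count for 31, 2 counts for 11 and 3 counts for 5. The 28-day control had 0 counts for 141, 1 for 27, 2 for 14 and 3 for 7. Both distributions were highest at 0. The rule limits both to at most 3 counts, so nothing is read from their likeness. The counts above 0 fell in the 28-day nitrite library alone for 30 members, in the 28-day control alone for 31 and in both for 17.

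**Figure D1:**
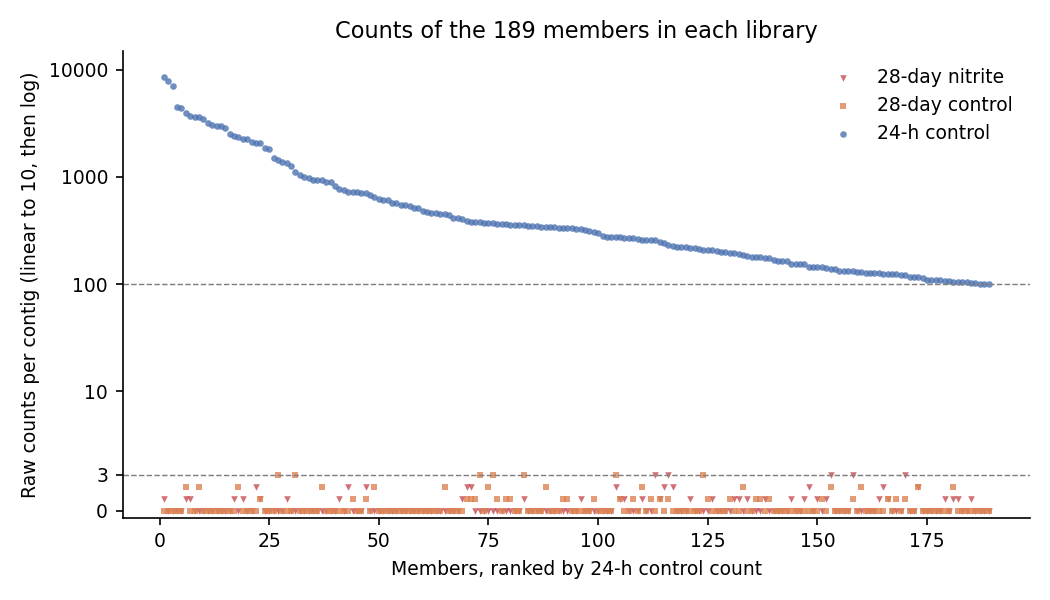
Raw counts (linear to 10, then on a log axis) of each of the 189 members in the 28-day nitrite library, the 28-day control and the 24-h control, with members ranked by their 24-h control count. 24-h control counts run from 8448 to 100, and no 28-day count is above 3, the limit of the rule (dashed lines mark both limits).

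24-h control counts ranged from 100 to 8448, with a median of 329 and quartiles of 165 and 676. The plot of counts by rank shows a steep start and a long shoulder. The 10 highest members held 34.5% of the members' 24-h control counts and the 20 highest 52.9%. No member was among the 100 most abundant contigs of the 24-h control, while 23 were among the 500 most abundant and 133 among the 5000 most abundant. Contig lengths are not in the table, so counts rank the contigs by reads and not by level per length.

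The highest member was c22114_g1_i1@@CL, with 1 count in the 28-day nitrite library, 0 in the 28-day control and 8448 in the 24-h control, or 406 CPM there. Its log2 ratio of the 28-day nitrite library to the 24-h control was -13.50 (95% counting interval, -18.81 to -11.03), from 1 count and so without the floor. With 0 set to 3 counts it was 3148-fold lower in the 28-day control than in the 24-h control. At the bound of the 95% counting interval it was 2560-fold lower. It alone made 0.0398% of the 24-h control.

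Next came c25309_g1_i1@@CL, with 0 counts in the 28-day nitrite library, 0 in the 28-day control and 7857 in the 24-h control. With 0 set to 3 counts it was 3603-fold lower in the 28-day nitrite library and 2928-fold lower in the 28-day control. At the bounds of the counting intervals it was 2929-fold and 2381-fold lower in the same libraries. It had the highest 24-h control count of the 111 members at 0 in both 28-day libraries. Of the other 8 among the 10 highest, 4 were contigs of 1 set, c26750_g1, described with the other sets that share a gene number.

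The remaining 4 of the 10 highest stood alone. The contig c24424_g1_i3@@CL had 1 count in the 28-day nitrite library, 2 in the 28-day control and 3910 in the 24-h control. The contig c26834_g1_i1@@CL had 1, 0 and 3666 counts in the same libraries, and c26580_g1_i1@@CL had 0, 0 and 3636. These 3 had IDs ending in CL. The highest member with another kind of ID was mniContig45817, with 0 counts in the 28-day nitrite library, 2 in the 28-day control and 3587 in the 24-h control. Its log2 ratio of the 28-day control to the 24-h control was -10.97 (-14.02 to -9.12). With 0 set to the floor, mniContig45817 was 1645-fold lower in the 28-day nitrite library than in the 24-h control. At the bound of the counting interval it was 1337-fold lower.

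Over all members the median log2 ratio was -7.41 for the 28-day nitrite library over the 24-h control and -7.13 for the 28-day control over the 24-h control, with counts of 0 set to the floor of 3. These values rest on that floor for 142 and 141 members, which had no count. The same medians over all contigs with at least 1 CPM in 1 of the libraries compared were -0.07 and -0.02. All 189 members were lower with the whole counting interval beyond 2-fold in both comparisons, where 8.03% of 23727 contigs were lower in the 28-day nitrite library and 6.75% of 23520 in the 28-day control. The rule chose the members on these contrasts and the comparisons share the 24-h control, so nothing is read from these counts.

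The rule limits each 28-day count to 3 whatever the 24-h control count, so a rise of the 28-day counts in proportion to abundance could not appear among the members. Among the 60 members with 24-h control counts from 100 to below 200 the 28-day libraries together held a mean of 0.8 counts per member, and 53.3% of these members had 0 in both. The mean was 0.9 for the 70 members from 200 to below 500 and 0.42 for the 26 from 500 to below 1000. Among the 33 members with at least 1000 counts in the 24-h control the mean was 0.67 and the share at 0 was 63.6%. The summed 28-day counts were 22 against 97390 counts in the 24-h control for the highest members, and 48 against 8210 for the lowest. Spearman's rho of the 24-h control count with the summed 28-day count was -0.07 across the 189 members, -0.14 across the 134 with IDs ending in CL and 0.25 across the 53 numbered mniContig. These are descriptions, since the points share their libraries and the limit of 3 counts.

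The limits of the rule did not fall in a gap at the lower end of the 24-h control counts. Just inside were c10335_g2_i1@@CL, c22448_g1_i1@@CL and mniContig45488, each with 0 counts in both 28-day libraries and 100 in the 24-h control. Just outside was c23728_g1_i1@@CL with 0 in both 28-day libraries and 99 in the 24-h control, followed by mniContig46380 with 0 counts in the 28-day nitrite library, 3 in the 28-day control and 98 in the 24-h control. A further contig outside, mniContig50005, had 3, 0 and 97 counts in the same libraries. In all, 97 contigs had 50 to 99 counts in the 24-h control and at most 3 in both 28-day libraries.

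At the limit of 3 28-day counts, contigs numbered mniContig and contigs ending in CL lay on both sides. The members mniContig45973 and mniContig46200 shared the highest summed 28-day count. The first had 2 counts in the 28-day nitrite library, 3 in the 28-day control and 275 in the 24-h control, and the other had 3, 2 and 140. The next were mniContig46667 with 1, 3 and 353 counts and c13676_g2_i1@@CL with 3, 1 and 232. Just outside, mniContig44809 had 0 counts in the 28-day nitrite library, 4 in the 28-day control and 903 in the 24-h control, mniContig44314 had 0, 4 and 481, and c22936_g1_i1@@CL had 4, 2 and 167. Both contigs ending in CL were chosen after their values were seen. With at least 100 counts in the 24-h control, 51 contigs had a highest 28-day count from 4 to 10, of which 38 were numbered mniContig and 12 ended in CL.

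The class of contig ID was not used by the rule, but it may not be independent of the counts that the rule used. Of the table's IDs, 41811 are a number after mniContig, and the others hold a component, a gene and an isoform number, in the form that the Trinity assembler writes, followed by a column name. The assembler and the meaning of the column name are not stated in the labels or the table. Of the 189 members, 134 (70.9%, exact interval 63.9 to 77.3) had IDs ending in CL, the column name of the 24-h control, 53 (28.0%, 21.8 to 35.0) were numbered mniContig and 2 (1.06%, 0.128 to 3.77) ended in TL. None ended in MT or ML, the names of the 28-day libraries. Of such contigs, 368 and 379 reached 100 counts in the 24-h control. From 3 counts in the 24-h control upward, 0 contigs of either class had 0 counts in both 28-day libraries. If a column name marks the library that a contig was assembled from, the shares by class would follow in part from it. This was not tested. Among all 8183 contigs with at least 100 counts in the 24-h control, 5.56% ended in CL, 80.3% were numbered mniContig and 4.96% ended in TL. These intervals cover counting error only and take contigs as independent, which those of 1 gene number are not.

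**Figure D2:**
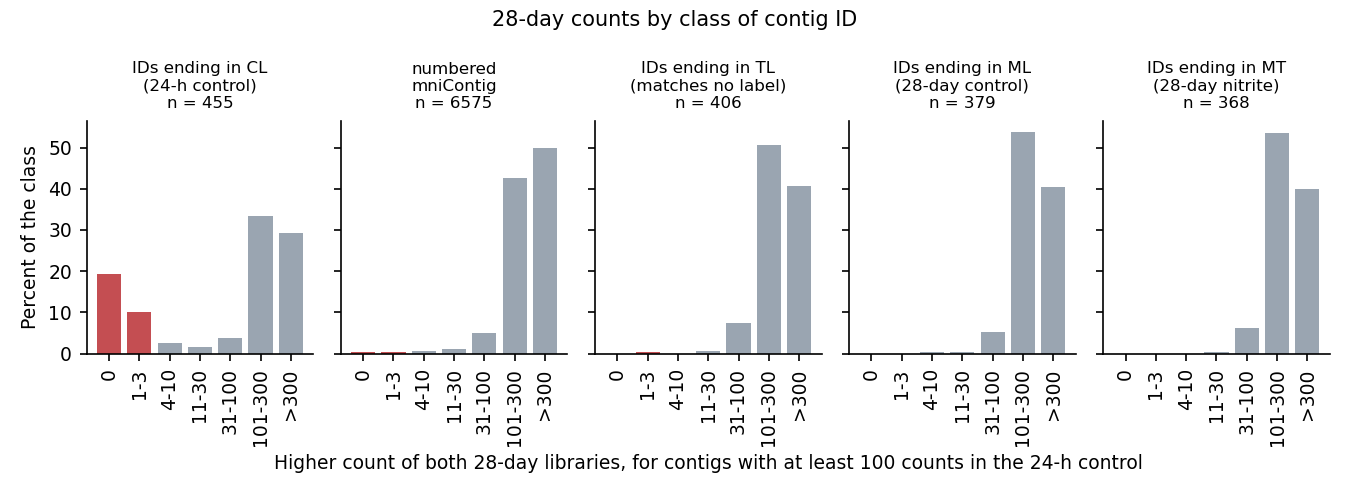
Contigs with at least 100 counts in the 24-h control, split by class of ID; bars give the percent of each class at each range of the higher of the 28-day counts, with the ranges of the members (0 and 1 to 3) in red. The ranges differ in width. The 455 contigs with IDs ending in CL have 19.3% at 0 and 10.1% at 1 to 3, against 0.35% and 0.456% of the 6575 numbered mniContig.

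The spread of 28-day counts was set side by side for both classes. Of 455 contigs ending in CL with at least 100 counts in the 24-h control, 134 (29.5%, 25.3 to 33.9) were members, 36 had a highest 28-day count from 4 to 100, and 285 were above 100. Of 6575 numbered mniContig, 53 (0.806%, 0.604 to 1.05) were members, 38 were at 4 to 10, 75 at 11 to 30 and 332 at 31 to 100. These ranges widen, so their counts show no trend from 1 range to the next. In the class ending in CL the members outnumbered the contigs at 4 to 100, and in the class numbered mniContig they were fewer than those at 31 to 100 alone. At exactly 0 in both 28-day libraries were 88 contigs ending in CL and 23 numbered mniContig.

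Contigs ending in CL with 0 counts in both 28-day libraries were also found well below the limit of the rule. They were 25.3% of 1299 contigs with at least 3 and below 10 counts in the 24-h control, 23.9% of 893 from 10 to below 30 and 20.2% of 480 from 30 to below 100. Above the limit they were 12.3% of 269 contigs from 100 to below 300 counts, 29.3% of 123 from 300 to below 1000 and 30.2% of 63 with at least 1000. At the same depths the shares of contigs numbered mniContig lay between 0.229% and 0.438%. A low 24-h control count makes a 28-day count of 0 more likely, so the lowest ranges are not alike in kind to the others.

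**Figure D3:**
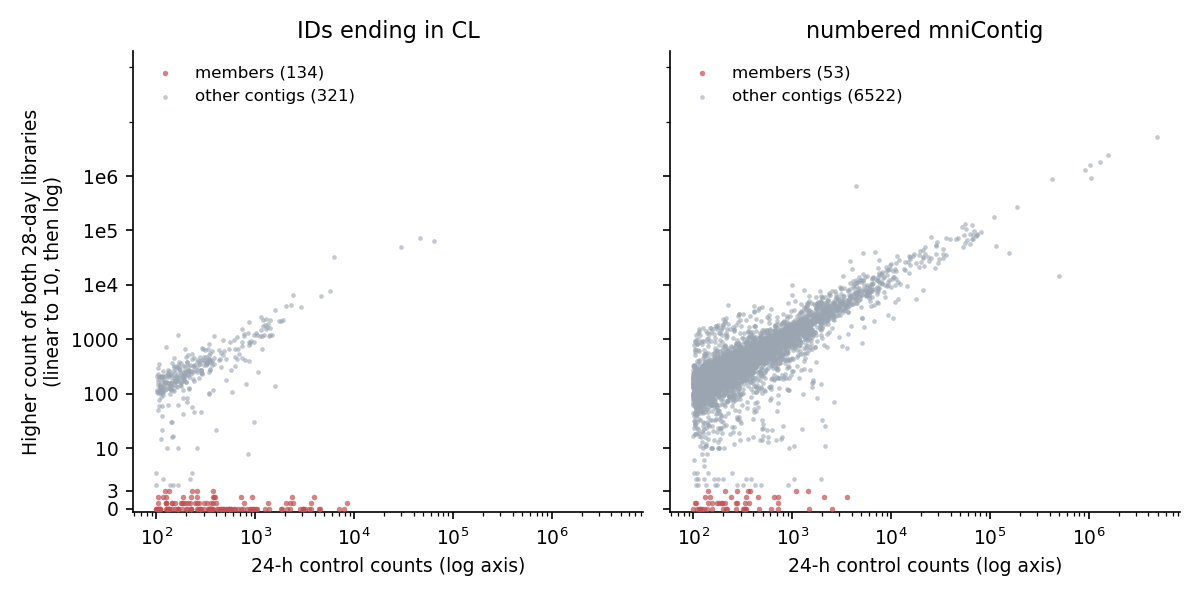
The higher of the 28-day counts (linear to 10, then log) against the 24-h control count (log axis) for contigs with at least 100 counts in the 24-h control, for IDs ending in CL and for those numbered mniContig. Members (134 and 53) lie at 3 or below, under the diagonal that holds most of the other 321 and 6522 contigs.

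Members named after the 24-h control also differed from the mniContig members in their counts. Their median 24-h control count was 350.5, against 268 for the mniContig members, and they held 82.4% of the members' 24-h control counts, against 17.2%. Both 28-day libraries had 0 counts for 88 of the 134 (65.7%) and for 23 of the 53 mniContig members (43.4%). The rule used these counts and isoforms were counted singly, so this describes the members only. Within the class ending in CL, the other 321 contigs with at least 100 counts in the 24-h control had a median of 205.

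The 2 members with IDs ending in TL were alike. The contig c24409_g1_i2@@TL had 0 counts in the 28-day nitrite library, 1 in the 28-day control and 366 in the 24-h control, and c38845_g1_i1@@TL had 0, 1 and 332. They were 0.493% of the 406 contigs ending in TL with at least 100 counts in the 24-h control, a share near that of mniContig and far below that of the class ending in CL.

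The same rule with another library in the place of the 24-h control found few contigs. It found 15 for the 28-day nitrite library, led by c31264_g1_i1@@MT with 1989 counts in the 28-day nitrite library and 0 in both controls, c33802_g1_i1@@MT with 1385 and 0 in both, and c5406_g1_i1@@MT with 1153 counts, 0 in the 28-day control and 1 in the 24-h control. For the 28-day control it found c37360_g1_i1@@ML alone, with 1 count in the 28-day nitrite library, 211 in the 28-day control and 0 in the 24-h control. Of these, 13 ended in MT, which is 2.74% (1.47 to 4.63) of the 475 contigs ending in MT with at least 100 counts in the 28-day nitrite library. For the class ending in ML the share was 0.226% (0.00573 to 1.25) of 442. Both lie below the 29.5% of the class ending in CL, but their rule also asks for at most 3 counts in the other 28-day library. At least 100 counts in both 28-day libraries and at most 3 in the 24-h control were found for 3 contigs. The 28-day libraries share a sampling day, which the 24-h control shares with neither. Sampling time, tank and library cannot be told apart with the 3 libraries used, 1 per group.

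Several members were isoforms of the same assembled gene. The 136 members named after a library had 113 gene numbers in 105 components, and 12 gene numbers held more than 1 member, 35 members in all. These 35 held 39.9% of the members' 24-h control counts. All 35 were among the 134 members ending in CL, which had 111 gene numbers. Of the other 321 contigs ending in CL with at least 100 counts in the 24-h control, 85 shared 37 of 273 gene numbers. Sharing was thus about as common outside the members. For 110 of the 113 gene numbers, every contig in the table was a member. Only the 12 with more than 1 member are informative here, since the rest of the 110 have a single contig in the table. Reads of isoforms overlap, so the counting could split them, and such members are not independent.

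The set with the highest counts was c26750_g1, whose 4 contigs had 0 counts in the 28-day nitrite library, 0 in the 28-day control and 19405 in the 24-h control, 13.3% of the members' total. Its isoform i3 (c26750_g1_i3@@CL) had 7050 counts in the 24-h control, c26750_g1_i1@@CL had 4490, c26750_g1_i5@@CL had 4401 and c26750_g1_i2@@CL had 3464, so the highest was 2.04 times the lowest. The 4 contigs of c26723_g1 also had no 28-day count, and 12119 counts in the 24-h control, between 2859 and 3184 each. The 5 contigs of c26463_g1 had 3 counts in the 28-day nitrite library, 3 in the 28-day control and 12057 in the 24-h control, between 2061 and 3011 each. The contigs of c19104_g2 had 0, 0 and 4334 counts, and those of c23531_g1 had 0, 0 and 2543.

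**Figure D4:**
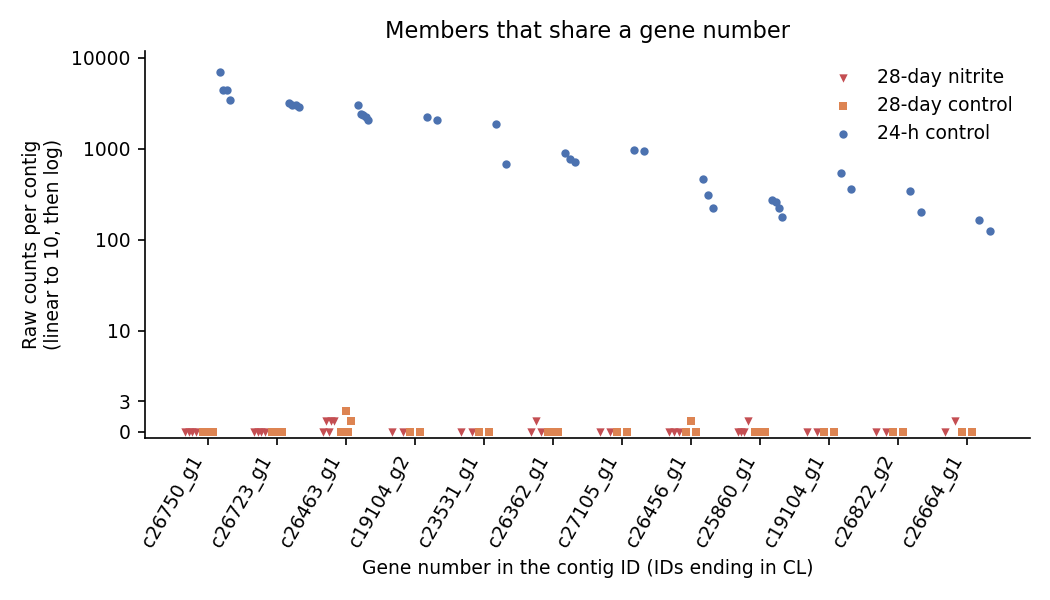
Raw counts per contig (linear to 10, then log) of the 35 members that share 1 of 12 gene numbers, in the 28-day nitrite library, the 28-day control and the 24-h control, with sets ordered by their summed 24-h control counts. All contigs of a set are high in the 24-h control, and the highest is at most 2.76 times the lowest.

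Within a component, other gene numbers could behave differently. The 105 components held 12 more contigs that were not members. Of these, 8 had 0 counts in both 28-day libraries and missed the rule only because they had below 100 counts in the 24-h control, from 13 to 86. The other 4, in 3 components, had about as many counts in the 28-day libraries as in the 24-h control, or more.

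In the first of these components, c26039_g3_i1@@CL had 112 counts in the 28-day nitrite library, 110 in the 28-day control and 105 in the 24-h control, and c26039_g3_i2@@CL had 105, 110 and 116. The member of that component, c26039_g4_i1@@CL, had 0, 0 and 282. In the next, c26968_g4_i2@@CL had 244, 241 and 209 counts, and the member c26968_g1_i1@@CL had 0, 0 and 300. In the last, c25192_g2_i2@@CL had 80, 63 and 43 counts, and the member c25192_g1_i1@@CL had 1, 2 and 257. Each of these members thus stood beside a contig of another gene number that was present in all 3 libraries.

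Most of the members numbered mniContig lay close together in their numbers. These numbers run from 1 to 55558 over all mniContig contigs, with a median of 27105, and from 13192 to 47811 over the 53 members, with a median of 46126. In blocks of 1000 numbers, members fell in 10 of 56 blocks, and 5 adjoining blocks, from 43001 to 48000, held more than 1 each. This range was picked after the members' numbers were seen. It held 48 of the 53 members, or 3.19% (2.36 to 4.20) of its 1507 contigs with at least 100 counts in the 24-h control, against 0.0987% (0.032 to 0.23) of 5068 in all other numbers. Its share of all such contigs was 22.9%.

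**Figure D5:**
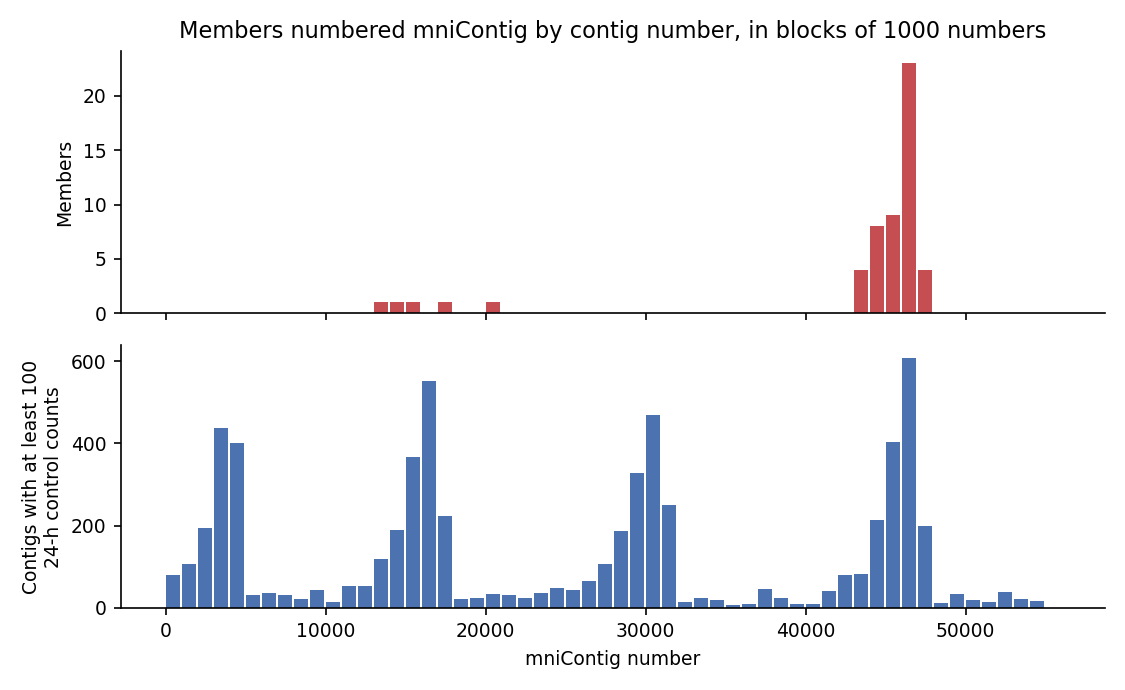
Members numbered mniContig (top) and all mniContig contigs with at least 100 counts in the 24-h control (bottom) in blocks of 1000 contig numbers. The well-counted contigs peak in 4 places along the numbers. Of the 53 members, 48 lie from 43001 to 48000, a range around the last peak, whose block from 46001 holds 23.

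The well-counted contigs themselves peaked 4 times along the numbers, in the blocks starting at 3001, 16001, 30001 and 46001, with 438, 553, 470 and 608 contigs of at least 100 counts in the 24-h control. The first 3 of these blocks held 0 members and the last held 23. Contigs near the rule showed a like position: of the 38 mniContig contigs with a highest 28-day count from 4 to 10, 25 lay from 43001 to 48000. Among contigs with 10 to 99 counts in the 24-h control and 0 in both 28-day libraries, 31 of 62 did. The range holds 10.3% of all mniContig contigs, whatever their count, and its share of those with 10 to 99 is not given here. Of 741 further mniContig contigs lower in both 28-day libraries by the 2-fold rule, 329 (44.4%) lay there. The range held 22.9% of mniContig contigs with at least 100 counts in the 24-h control, the base for the 38. The 62 and the 741 were not held to that count. What the order of the numbers stands for is not stated in the labels or the table.

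The mniContig contigs that met the rule for the 28-day nitrite library lay elsewhere. They were mniContig31040, with 429 counts in the 28-day nitrite library, 3 in the 28-day control and 1 in the 24-h control, and mniContig31479, with 324, 2 and 1. Both were named after their values were seen. With 2 contigs, no difference in position was tested.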

How the data were processed

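The authors deposited 1 table of raw read counts per contig, not normalized (from its values, whole numbers with a different total for each library). The submitters' processing notes list BWA 0.7.8-r455 and HTSeq without a role, and the labels' protocols give RNA with RIN above 8.0 and a standard Illumina preparation. The assembler, the merging of contigs, the reference and the strand setting: not given in the sources used here. Columns were matched to libraries by name, and 1 column of values that matched no label was not used.

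TMM factors from edgeR 4.0.16 in R 4.3.3 were 1.154 for the 28-day nitrite library, 0.883 for the 28-day control and 0.981 for the 24-h control. Ratios of scaled values were computed in Python 3.11.15 where either library reached 1 CPM, with Clopper-Pearson 95% intervals (scipy 1.17.1) and counts of 0 set to 3. A contig was counted as lower when its whole interval lay beyond 2-fold. This step was checked on simulated counts with counting error only, so not against variation between animals or libraries. With 1 library per group no p-value was computed. DESeq2 1.42.0 size factors, other scalings, filters, folds and limits were alternatives. Contigs were named by rank in the 24-h control, closeness to the limits of the rule, ID class and shared gene number. The members and the groupings were chosen with earlier results of these data known.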

Additional observations from a re-analysis of the deposited data

How the results depend on the processing

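The number of members was 286 with at least 50 counts in the 24-h control, 59 with at least 500, 33 with at least 1000 and 111 with 0 counts allowed in both 28-day libraries. Other limits, a limit on 1 28-day library only (252 for the 28-day nitrite library, 210 for the 28-day control), limits in CPM and 1 contig per gene number (166) stayed within 1.5 times of 189. The share of members ending in CL was 81.4% with at least 500 counts, 79.3% at 0 28-day counts and 60.8% at up to 10; that of mniContig was 18.6%, 20.7% and 37.9%. Contigs lower in the 28-day nitrite library than in the 24-h control numbered 627 at 10 CPM, 1076 beyond 4-fold, 2889 beyond 1.5-fold and 3327 without an interval. Those lower in the 28-day control numbered 483, 868, 2429 and 3026 under the same settings, and 998 without contigs named after a library. Stricter limits give fewer contigs by construction. Without the 10 most abundant contigs in the denominator, the members took 1.61% of the 24-h control. At 10 CPM, 124 members entered. No paired analysis was possible because every group is a single library, which also leaves no replicate to leave out.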
